A study of Mus musculus with 12 samples.

Results

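The genes described here encode the enzymes and regulators of fatty acid oxidation and acyl-CoA metabolism. They are 40 named genes, taken from the deposited table of TPM values (each gene's transcripts per 1000000 transcripts) by gene name, and all 40 were found among its 24674 genes. By role they comprise 7 genes of the carnitine shuttle, 7 acyl-CoA dehydrogenases, 3 genes of electron transfer, 5 hydratases, hydroxyacyl-CoA dehydrogenases and thiolases, 3 enzymes of unsaturated acyl chains, 3 peroxisomal enzymes, 3 ketone body enzymes, 5 acyl-CoA synthetases and 4 transcriptional regulators. All 40 are annotated as protein-coding and they lie on 17 chromosomes. RNA-seq was performed on mouse prostate organoids grown from basal cells, with the genotype Wildtype and the strain C57BL/6 in every sample. The 4 groups of 3 samples were Vehicle, UK5099, Butyrate, and UK5099 + Butyrate, which is called the combination below. UK5099 is a small-molecule inhibitor of the mitochondrial pyruvate carrier, and butyrate is a short-chain fatty acid that inhibits histone deacetylases. The study asked whether the 2 treatments have similar effects on gene expression and whether they act together, and the same question is put here to the genes that burn fatty acids.

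Fatty acids are activated to acyl-CoA by synthetases and enter mitochondria as acylcarnitines, made by carnitine palmitoyltransferase 1 on the outer membrane and turned back into acyl-CoA by carnitine palmitoyltransferase 2 on the inner side. Each round of β-oxidation then runs through an acyl-CoA dehydrogenase, a hydratase, a hydroxyacyl-CoA dehydrogenase and a thiolase, and its electrons reach the respiratory chain through the electron transfer flavoprotein. Acetyl-CoA from this route and acetyl-CoA from pyruvate meet in the same TCA cycle, and the peroxisome proliferator-activated receptors (PPARs) are the best known transcription factors of the pathway. Butyrate is itself oxidized as an acyl-CoA after activation by a medium-chain synthetase.

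Sequencing depth was similar across the 12 samples, with 33251850 to 43499005 fragments recovered from the deposited values. Averaged over the 12 samples, 35 of the 40 genes reached 1 TPM. Replicates were close, since the median coefficient of variation of the 40 genes within a group lay between 2.67% and 4.23%. Nothing in the labels says that the 3 samples of a group came from separate cultures or mice, so p-values measure the spread between these samples, which may be technical. Basal keratins and luminal keratins were both present in every sample, as the label of basal-derived organoid implies. The summed TPM of 4 basal markers was 6548 to 6673 in vehicle, 13620 to 14006 under UK5099, 6982 to 7221 under butyrate and 10110 to 10512 under both. That of 3 luminal markers was 4132 to 4301 in vehicle, 2328 to 2487 under UK5099, 2241 to 2281 under butyrate and 1389 to 1576 under both. The basal sum thus stood furthest from vehicle with UK5099, while luminal markers were lower in every treated group. The basal markers did not move alike. From vehicle to butyrate, means went from 1848 to 3152 TPM for Krt5 and from 59.2 to 104.5 for Col17a1. Those of Krt14 went from 1676 to 1391 and of Krt15 from 3029 to 2426, and Krt15 was at 1932 in the combination. A different share of basal and luminal cells and a different amount of RNA per cell cannot be told apart in these bulk samples, and the part of this shift in the results below was not tested.

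Because TPM is a share of a fixed total, the scaling of the samples mattered for these genes. A coefficient is here a difference of log2(TPM + 1) between groups. The 13345 genes that averaged 1 TPM or more, called expressed genes below, had a median coefficient against vehicle of -0.12 under UK5099, -0.30 under butyrate and -0.41 under both on the deposited scale. Rescaling the samples by their median of ratios brought the 3 medians to 0.003, -0.03 and -0.03. The 40 genes had median coefficients of -0.11, -0.11 and -0.28 on the deposited scale, and of 0.01, 0.15 and 0.07 after rescaling. The rescaling turned the sign of 13 members under UK5099, 15 under butyrate and 17 under both. A gene is therefore said to have risen or fallen only where the limma test gave an adjusted p under 0.01 with the same sign on both scales. Values below are deposited TPM unless stated.

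At the thresholds of the study's model, an adjusted p under 0.01 and a coefficient beyond 1 in either direction, few of the 40 genes were called. UK5099 called 0 of 40, where 1.84% of all genes were called, although 27 members had an unadjusted p under 0.05 in limma and 0 were called by voom on the recovered fragments. Butyrate called 2 members, Acsl3 and Acsm3, against 3.54% of all genes. The combination called 4 members, Acsl3, Bdh1, Cpt1a and Decr1, against 6.42%. After rescaling, Acsl3 and Cpt1a no longer passed a coefficient of 1 in the combination and Acsl1 did, which left 3 members called. The interaction called 0 of 40, against 1.01% of all genes, with 19 members at an unadjusted p under 0.05 and 0 called by voom. Butyrate against UK5099 called 2 members, again Acsl3 and Acsm3, against 1.86%. The members' shares with butyrate and with the combination, 2 and 4 of 40, were near those of the expressed genes, 6.20% and 11.1%.

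**Figure D1:**
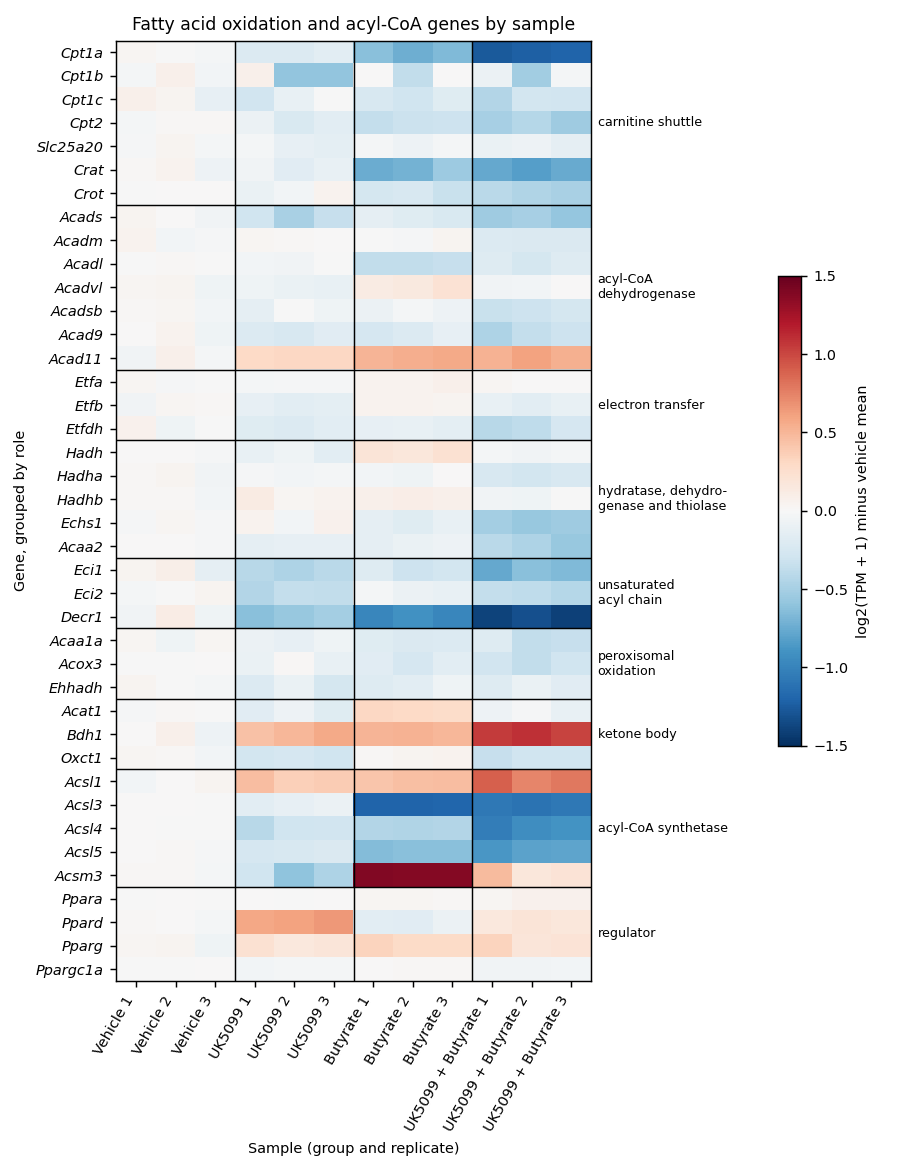
Each row is 1 of the 40 genes, grouped by role, and each column 1 of the 12 samples; colour gives log2(TPM + 1) minus the mean of the 3 vehicle samples, limited to 1.5 in either direction. Acsl3 and Decr1 are darkest blue in samples with butyrate, joined by Cpt1a in the combination, Acsm3 is darkest red with butyrate alone, and Bdh1, Acsl1 and Acad11 are red in all 9 treated samples.

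More members moved by smaller amounts on both scales. With UK5099, 5 members rose, Acad11, Acsl1, Bdh1, Ppard and Pparg, where 8.19% of all genes did, and 7 fell, Acads, Acsl4, Acsl5, Decr1, Eci1, Eci2 and Oxct1, where 13.7% of all genes did. With butyrate, 9 members rose, Acad11, Acadvl, Acat1, Acsl1, Acsm3, Bdh1, Etfa, Hadh and Pparg, against 9.69% of all genes, and 5 fell, Acsl3, Acsl5, Cpt1a, Crat and Decr1, against 20.3%. With the combination, 6 rose, Acad11, Acsl1, Bdh1, Ppara, Ppard and Pparg, against 10.1%, and 7 fell, Acsl3, Acsl4, Acsl5, Cpt1a, Crat, Decr1 and Eci1, against 22.5%. As shares of 40, the butyrate counts were 22.5% higher and 12.5% lower, beside 11.6% and 32.2% of the expressed genes. The 3 comparisons share the vehicle samples, so genes named in more than 1 of them are not independent evidence.

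**Figure D2:**
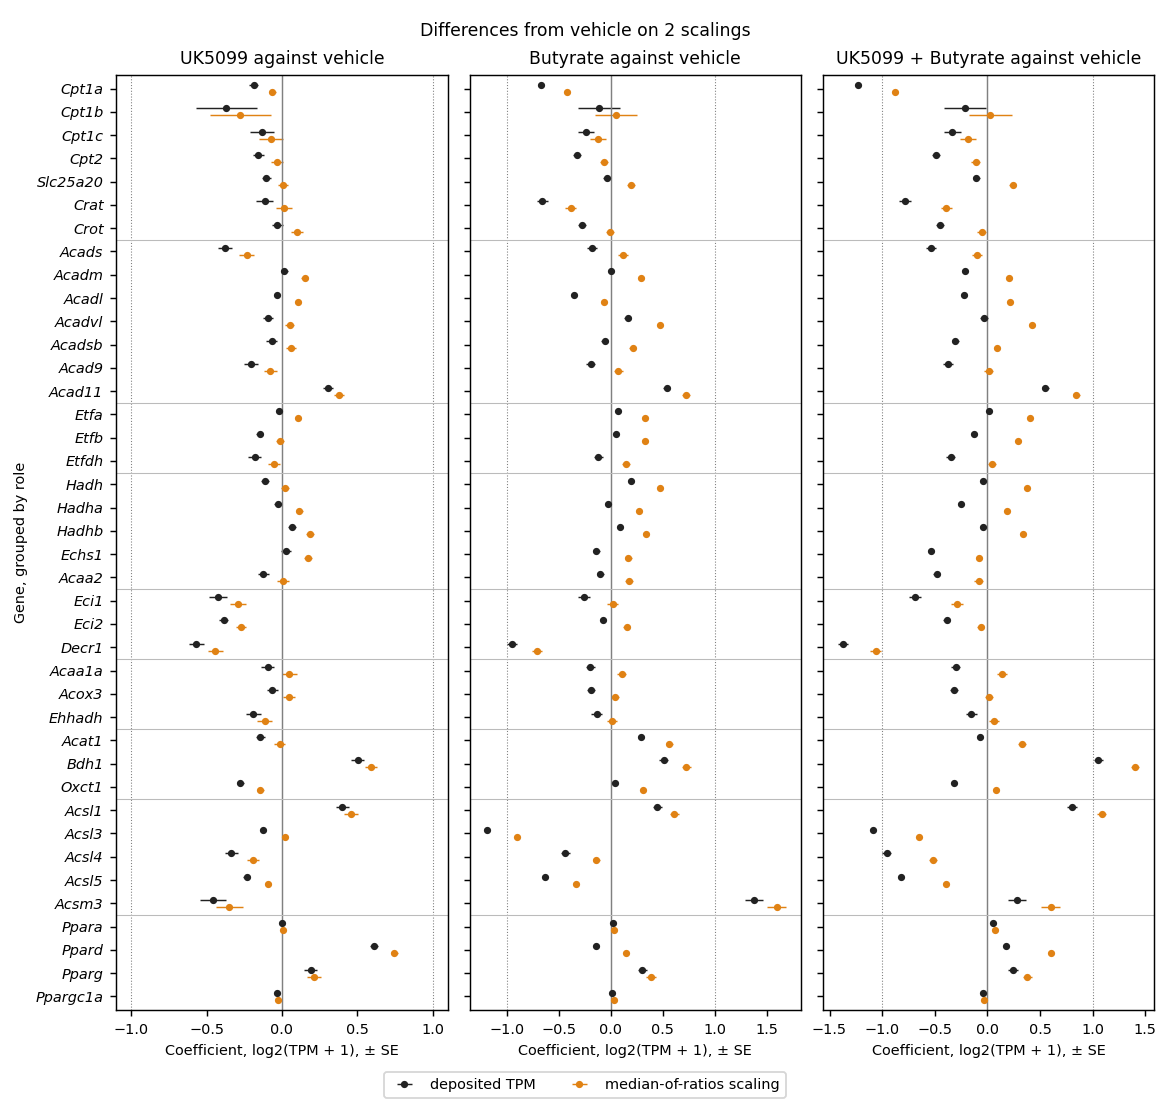
Coefficients with their standard errors for each of the 40 genes in the 3 comparisons with vehicle, on the deposited scale in black and after median-of-ratios scaling in orange; dotted lines mark -1 and 1. Orange points lie to the right of black ones, most of all in the combination, and Acsl3, Cpt1a and Decr1 stay left of 0 on both scales with butyrate and with the combination.

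The acyl-CoA synthetases activate free fatty acids and held the largest butyrate coefficients of the 40 genes in both directions. Among the 5 of them, butyrate lowered Acsl3 and Acsl5 and raised Acsl1 and Acsm3. Acsl3, a synthetase of the endoplasmic reticulum and lipid droplets, lies at chr1:78635542-78685461 on GRCm39. It measured 21.2, 21.3 and 21.1 TPM in vehicle samples, 18.8, 19.3 and 19.98 in UK5099 samples, 8.67, 8.63 and 8.73 in butyrate samples and 9.52, 9.31 and 9.56 in the combination. All 6 samples with butyrate lay far below the 6 without it. The mean with butyrate was 0.409 times that of vehicle, with a coefficient of -1.20 ± 0.019 (SE) and an adjusted p of 1.69e-10 in limma. After rescaling the coefficient was -0.90, so the direction held and the size no longer passed 1. In the combination the coefficient was -1.09, or -0.65 after rescaling. The gene Utp14b overlaps Acsl3 on the same strand over 13475 bases and went from 26.1 TPM in vehicle to 8.56 with butyrate, and how reads were divided between both is not given in the sources used here.

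The promoter of Acsl3 is shown because the gene fell in every sample with butyrate. The 250 bases before its start (chr1:78657575-78657824, plus strand, GRCm38.p6, RefSeq) are printed 5′ to 3′, with GC boxes and CCAAT boxes in capitals.
Acsl3: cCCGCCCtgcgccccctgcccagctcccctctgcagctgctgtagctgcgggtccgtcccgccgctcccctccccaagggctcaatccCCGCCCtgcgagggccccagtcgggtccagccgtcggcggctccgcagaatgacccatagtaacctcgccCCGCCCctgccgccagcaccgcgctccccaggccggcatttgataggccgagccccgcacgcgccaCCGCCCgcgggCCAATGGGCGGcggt
This stretch held 5 GC boxes and 1 CCAAT box, and 75.6% of its bases were G or C.

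Acsm3, a mitochondrial medium-chain acyl-CoA synthetase of the family that activates butyrate, moved in the opposite direction. It measured 1.96, 1.95 and 1.87 TPM in vehicle, 1.37, 0.9198 and 1.12 after UK5099, 6.65, 6.5998 and 6.57 after butyrate and 3.06, 2.28 and 2.38 after both. The 3 butyrate samples stood above all others, and the UK5099 samples stood below all others. Butyrate raised it 3.43-fold, with a coefficient of 1.38 ± 0.088 on the deposited scale and 1.60 after rescaling (adjusted p = 5.89e-07 and 4.03e-07, limma). For UK5099 the coefficient was -0.46 on the deposited scale (adjusted p = 0.00221) and -0.35 after rescaling (adjusted p = 0.0132). In the combination the mean was 1.34 times that of vehicle, and the coefficient of 0.28 did not pass on the deposited scale (adjusted p = 0.0203). After rescaling it was 0.60 and passed (adjusted p = 0.000316, limma), and every combination sample lay above every vehicle sample. The gene Eri2 overlaps Acsm3 on the other strand over 18835 bases and measured 3.38 TPM in vehicle and 3.22 with butyrate, at a coefficient of -0.06.

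The promoter of Acsm3 is shown beside that of Acsl3 because both genes responded to butyrate, in opposite directions. The 250 bases before its start (chr7:119760673-119760922, plus strand, GRCm38.p6, RefSeq) are written the same way.
Acsm3: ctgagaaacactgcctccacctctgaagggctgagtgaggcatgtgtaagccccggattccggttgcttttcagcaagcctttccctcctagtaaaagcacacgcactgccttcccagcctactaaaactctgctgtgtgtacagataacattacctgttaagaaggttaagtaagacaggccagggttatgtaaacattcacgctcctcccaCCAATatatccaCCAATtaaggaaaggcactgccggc
It held 2 CCAAT boxes and 0 GC boxes, with 49.2% of bases G or C.

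Acsl4 fell with UK5099 and with the combination, and Acsl5 fell in all 3 comparisons with vehicle. Acsl4, which prefers arachidonic acid, measured 22.02, 21.8 and 21.8 TPM in vehicle, against 16.1, 17.6 and 17.7 under UK5099, 15.9, 15.8 and 15.9 under butyrate and 10.1, 10.98 and 11.3 under both. The combination samples lay below all others, and those of both single treatments lay below vehicle. Its coefficient for the combination was -0.96 ± 0.041 and -0.52 after rescaling, while for butyrate alone the rescaled coefficient of -0.14 did not pass (adjusted p = 0.0119, limma). Acsl5, a mitochondrial and endoplasmic reticulum synthetase, measured 19.2, 19.4 and 19.02 TPM in vehicle samples, 16.01, 16.1 and 16.4 in UK5099 samples, 11.9, 12.1 and 12.1 in butyrate samples and 10.04, 10.6 and 10.7 in the combination. The 4 groups did not overlap, in that descending order. Acsl1, the main synthetase of oxidative tissues such as heart and fat, went the other way, with 0.996, 1.05 and 1.101 TPM in vehicle, 1.82, 1.62 and 1.68 after UK5099, 1.74, 1.81 and 1.83 after butyrate and 2.81, 2.39 and 2.54 after both. Every treated sample exceeded every vehicle sample, and the 2 single treatments overlapped. The combination raised Acsl1 2.46-fold with a coefficient of 0.80, or 1.09 after rescaling.

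The order of the synthetases was read per exonic length, as fragments per exonic kilobase per 1000000 fragments. In vehicle, Acsl4 was highest at 56.9 ± 0.425 (SD, n = 3), followed by Acsl3 at 47.1 ± 0.298, Acsl5 at 35.1 ± 0.212, Acsm3 at 2.01 ± 0.0328 and Acsl1 at 1.26 ± 0.0743. No neighbours in this order overlapped. With butyrate, Acsl4 stayed first at 51.4, Acsl5 at 27.3 exceeded Acsl3 at 23.99, and Acsm3 at 8.59 exceeded Acsl1 at 2.68.

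**Figure D3:**
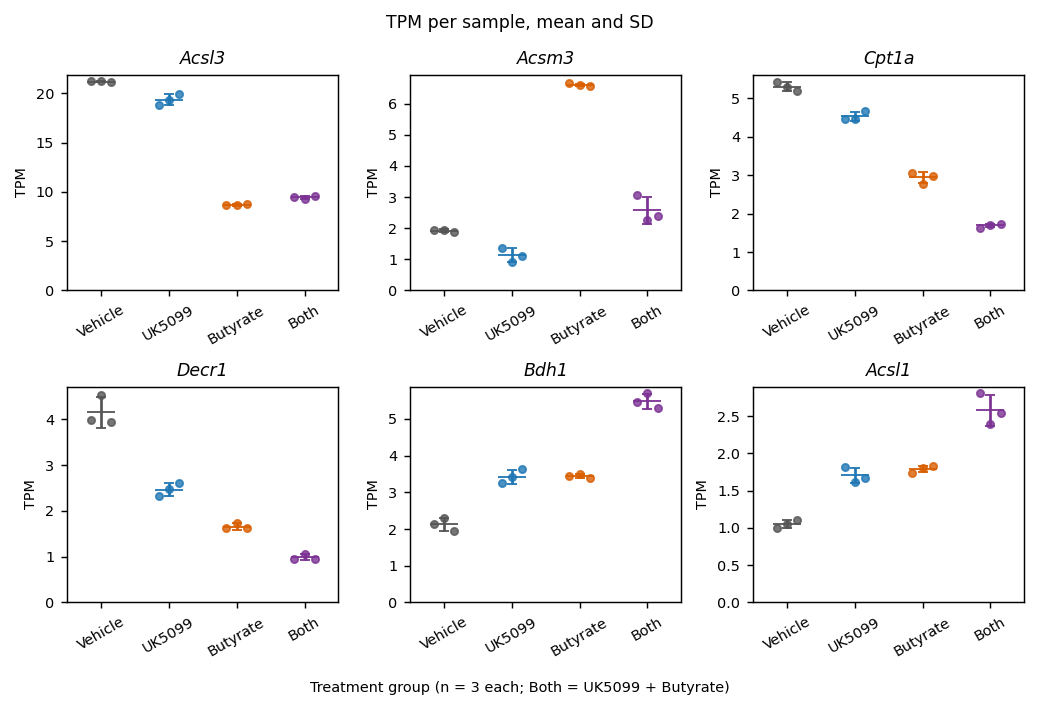
TPM of 6 members in each of the 12 samples, with group means and SDs (n = 3); each axis starts at 0. Acsl3 and Acsm3 separate the groups by butyrate, Cpt1a and Decr1 step down to 1.69 and 0.989 TPM in the combination, and Bdh1 and Acsl1 step up to 5.48 and 2.58 TPM.

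In the carnitine shuttle, 2 of 7 genes, Cpt1a and Crat, fell with butyrate and with the combination. The UK5099 differences of Cpt1a and Cpt2 passed on the deposited scale and not after rescaling. Cpt1a encodes the liver form of carnitine palmitoyltransferase 1, the step that limits fatty acid entry into mitochondria, at chr19:3372334-3435734 on GRCm39. It measured 5.43, 5.29 and 5.19 TPM in vehicle, against 4.45, 4.47 and 4.67 under UK5099, 3.07, 2.78 and 2.99 under butyrate and 1.63, 1.699 and 1.74 under both. The groups descended in that order without overlap. The combination mean was 0.319 times that of vehicle, with a coefficient of -1.23 ± 0.029 and an adjusted p of 6.02e-10, and -0.88 after rescaling. UK5099 alone gave -0.19 on the deposited scale (adjusted p = 0.000598) and -0.06 after rescaling, which did not pass (adjusted p = 0.0876, limma). No other gene of the table overlaps Cpt1a.

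The promoter of Cpt1a is printed because its transcript was lowest where both treatments met. The 250 bases before its start (chr19:3323051-3323300, plus strand, GRCm38.p6, RefSeq) carry in capitals 1 nuclear receptor half-site, read on the other strand, 2 GC boxes and 1 CCAAT box.
Cpt1a: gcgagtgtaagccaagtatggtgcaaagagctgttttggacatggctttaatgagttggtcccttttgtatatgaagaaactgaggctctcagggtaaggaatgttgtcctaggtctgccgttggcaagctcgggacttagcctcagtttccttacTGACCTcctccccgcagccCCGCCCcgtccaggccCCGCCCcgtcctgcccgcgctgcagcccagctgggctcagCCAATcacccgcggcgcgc
The half-site began 94 bases before the start, and 59.6% of the bases were G or C.

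Carnitine acetyltransferase, Crat, buffers acetyl-CoA as acetylcarnitine. It measured 7.56, 7.79 and 7.01 TPM in vehicle samples, 7.12, 6.499 and 6.799 in UK5099 samples, 4.06, 4.19 and 4.81 in butyrate samples and 3.97, 3.77 and 3.99 in the combination. Samples with butyrate lay below all samples without it, and the mean with butyrate was 0.584 times that of vehicle. Crot, the peroxisomal carnitine octanoyltransferase, measured 6.63, 6.67 and 6.69 TPM in vehicle, 6.17, 6.44 and 6.92 after UK5099, 5.38, 5.46 and 5.07 after butyrate and 4.79, 4.597 and 4.47 after both. Its lower level with butyrate did not hold after rescaling, where the coefficient was -0.01 (adjusted p = 0.861, limma). Cpt2, the inner membrane partner of Cpt1a, measured 5.11, 5.31 and 5.299 TPM in vehicle, against 4.87, 4.35 and 4.59 under UK5099, 3.87, 4.01 and 4.05 under butyrate and 3.41, 3.63 and 3.32 under both. Its lower level with butyrate did not hold after rescaling either, at a coefficient of -0.07. Slc25a20, the carnitine-acylcarnitine carrier, stayed between means of 2.79 and 3.08 TPM in the 4 groups. After rescaling it was higher with butyrate and with the combination, at coefficients of 0.19 and 0.24 (adjusted p = 0.00107 and 0.000218, limma). The deposited coefficients of -0.04 and -0.11 did not pass.

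The other carnitine palmitoyltransferase 1 genes were far lower. Per exonic kilobase and 1000000 fragments, vehicle held 8.53 ± 0.129 for Cpt1a, 0.682 ± 0.0496 for Cpt1b, the muscle form, and 0.353 ± 0.0603 for Cpt1c, the brain form. Cpt1b varied most between replicates, with 1.37, 0.501 and 0.493 TPM in the 3 UK5099 samples, and its whole span is shared on the same strand with the gene Gm44502, so its values are uncertain. Cpt1c went from 0.661 ± 0.118 TPM in vehicle to 0.316 ± 0.08303 in the combination and passed on the deposited scale only (rescaled adjusted p = 0.0711, limma).

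The acyl-CoA dehydrogenases open each round of β-oxidation and differ in the chain lengths they accept. Of 7, Acad11 rose in all 3 comparisons with vehicle, Acadvl rose with butyrate and Acads fell with UK5099. Acadvl, the very long-chain enzyme, measured 44.5, 44.96 and 41.6 TPM in vehicle, against 41.6, 40.7 and 40.3 under UK5099, 47.6, 48.3 and 50.9 under butyrate and 41.96, 42.3 and 43.8 under both. On the deposited scale only the butyrate samples stood above the range of vehicle. Their coefficient was 0.16 ± 0.034 (adjusted p = 0.00279), or 0.47 after rescaling, and without the third butyrate sample the deposited call was lost (coefficient 0.13, adjusted p = 0.0108, limma). The combination gave -0.03, which did not pass, and 0.42 after rescaling, which did (adjusted p = 1.26e-06, limma). Acads, the short-chain enzyme whose substrate is butyryl-CoA, measured 21.8, 21.4 and 20.5 TPM in vehicle samples, 17.1, 14.8 and 16.5 in UK5099 samples, 19.3, 18.5 and 18.05 in butyrate samples and 14.4, 14.7 and 13.9 in the combination. Vehicle was highest and the combination lowest, without overlap between them. The UK5099 coefficient was -0.38 ± 0.049, or -0.23 after rescaling, while butyrate alone gave -0.18 and 0.12, neither of which passed.

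Acadl, the long-chain enzyme, measured 14.1, 14.4 and 14.1 TPM in vehicle, 13.8, 13.6 and 14.1 after UK5099, 10.8, 10.8 and 10.99 after butyrate and 12.3, 11.7 and 12.2 after both. Butyrate was lowest, and the deposited coefficient of -0.36 came to -0.07 after rescaling (adjusted p = 0.017, limma). In the combination, -0.22 on the deposited scale became 0.21 after rescaling, a change of sign with both passing (adjusted p = 7.32e-06 and 6.93e-06, limma). Acad11, which takes very long chains and hydroxylated acyl groups, measured 1.26, 1.48 and 1.301 TPM in vehicle, against 1.89, 1.91 and 1.902 under UK5099, 2.33, 2.42 and 2.47 under butyrate and 2.38, 2.55 and 2.39 under both. Every treated sample exceeded every vehicle sample, and butyrate and the combination overlapped. Butyrate raised Acad11 1.79-fold with a coefficient of 0.54 ± 0.034, and 0.72 after rescaling. The medium-chain enzyme Acadm was at 11.4, 11.6 and 11.5 TPM in vehicle, UK5099 and butyrate and at 9.695 in the combination, where its coefficient was -0.22. After rescaling it was higher with UK5099, butyrate and the combination, at 0.15, 0.29 and 0.21 (adjusted p = 0.000809, 5.76e-06 and 5.01e-05, limma). Its level against vehicle thus depends on the scale. Acadsb, of branched chains, and Acad9, an assembly factor of complex I, had means of 5.03 to 6.44 and 4.41 to 6.03 TPM, and neither moved on both scales.

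Electron transfer from these enzymes runs through Etfa and Etfb, the subunits of the electron transfer flavoprotein, to its membrane oxidoreductase Etfdh. Of the 3 genes, Etfa rose with butyrate. Etfa measured 5.59, 5.34 and 5.39 TPM in vehicle samples, 5.31, 5.37 and 5.37 in UK5099 samples, 5.704, 5.696 and 5.79 in butyrate samples and 5.56, 5.45 and 5.48 in the combination. On the deposited scale the butyrate samples lay just above the others, with a coefficient of 0.06 (adjusted p = 0.00675) that grew to 0.33 after rescaling. The deposited call was lost in 9 of the 12 fits that left out a sample (adjusted p of 0.0103 to 0.0282). After rescaling, UK5099 and the combination passed too, at 0.10 and 0.40 (adjusted p = 0.000525 and 1.86e-08, limma), so the rise was not confined to butyrate on that scale. Etfb measured 9.48, 10.1 and 9.95 TPM in vehicle, 8.92, 8.68 and 8.75 after UK5099, 10.2, 10.3 and 10.1 after butyrate and 9.04, 8.73 and 9.03 after both. The UK5099 and combination samples lay below the vehicle samples, at deposited coefficients of -0.15 and -0.13. After rescaling these were -0.01 and 0.29, so the lower level with UK5099 did not hold and the combination changed sign. Etfdh measured 6.69, 6.06 and 6.34 TPM in vehicle, against 5.51, 5.39 and 5.57 under UK5099, 5.78, 5.84 and 5.67 under butyrate and 4.52, 4.66 and 5.17 under both. Its lower values in the combination did not hold after rescaling (coefficient 0.04, adjusted p = 0.377, limma).

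The hydratases, hydroxyacyl-CoA dehydrogenases and thiolases complete the round. Only Hadh of these 5 genes moved on both scales in a comparison with vehicle, upward with butyrate. Hadh, the short-chain hydroxyacyl-CoA dehydrogenase, measured 7.896, 7.898 and 7.72 TPM in vehicle samples, 7.17, 7.43 and 6.93 in UK5099 samples, 9.12, 8.905 and 9.38 in butyrate samples and 7.63, 7.53 and 7.67 in the combination. The butyrate samples were above all others, with a coefficient of 0.20 ± 0.024 (adjusted p = 6.64e-05), and 0.48 after rescaling. For the combination, the deposited coefficient of -0.04 did not pass and the rescaled one of 0.37 did (adjusted p = 9.56e-07, limma). Echs1, the short-chain enoyl-CoA hydratase, measured 51.9, 53.8 and 51.97 TPM in vehicle, 54.8, 51.1 and 54.9 after UK5099, 47.8, 46.4 and 48.6 after butyrate and 36.8, 35.2 and 35.9 after both. The combination stood apart from the rest at 0.684 times the vehicle mean, yet the rescaled coefficient of -0.08 did not pass (adjusted p = 0.0468, limma). Hadha, the α subunit of the mitochondrial trifunctional protein, measured 19.5, 19.8 and 18.5 TPM in vehicle, against 19.1, 18.7 and 18.9 under UK5099, 18.7, 18.3 and 19.4 under butyrate and 16.2, 15.7 and 16.1 under both. Here too the combination was lowest, at a coefficient of -0.25 on the deposited scale and 0.19 after rescaling, a change of sign. Hadhb, its β subunit, is encoded head to head with Hadha on the opposite strand and had means of 4.13 to 4.59 TPM. Acaa2, the mitochondrial thiolase and the highest of these 5 genes per exonic length in vehicle, measured 7.23, 7.25 and 7.13 TPM in vehicle samples, 6.49, 6.55 and 6.54 in UK5099 samples, 6.49, 6.66 and 6.802 in butyrate samples and 5.19, 4.94 and 4.52 in the combination. The combination samples lay below all others, and the rescaled coefficient of -0.08 did not pass (adjusted p = 0.117, limma).

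Enzymes that deal with double bonds in unsaturated acyl chains were the one role in which all 3 members fell with UK5099. Decr1, the mitochondrial 2,4-dienoyl-CoA reductase needed for polyunsaturated chains, at chr4:15917240-15945508 on GRCm39, fell in all 3 comparisons. It measured 3.97, 4.53 and 3.93 TPM in vehicle samples, 2.32, 2.47 and 2.5999 in UK5099 samples, 1.62, 1.74 and 1.62 in butyrate samples and 0.959, 1.07 and 0.939 in the combination. The 4 groups did not overlap. The combination mean was 0.238 times that of vehicle, with a coefficient of -1.37 ± 0.049 (adjusted p = 7.1e-09), and -1.06 after rescaling, beside -0.57 for UK5099 and -0.95 for butyrate on the deposited scale. Eci1, a mitochondrial enoyl-CoA isomerase, measured 8.29, 8.57 and 7.21 TPM in vehicle, 5.72, 5.55 and 5.82 after UK5099, 6.85, 6.26 and 6.46 after butyrate and 4.29, 4.81 and 4.704 after both. Samples with UK5099 lay below all samples without it, and the coefficients were -0.43 for UK5099 and -0.69 for the combination, or -0.29 and -0.29 after rescaling. Eci2, the isomerase found in peroxisomes and mitochondria, measured 2.68, 2.74 and 2.85 TPM in vehicle, against 1.78, 1.92 and 1.92 under UK5099, 2.68, 2.54 and 2.48 under butyrate and 1.94, 1.88 and 1.79 under both. Again the 6 samples with UK5099 lay below the 6 without it, but the rescaled coefficient for the combination, -0.06, did not pass (adjusted p = 0.158, limma).

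The 3 peroxisomal enzymes were a little lower in the treated samples on the deposited scale, which did not hold after rescaling. Acaa1a, the peroxisomal thiolase, measured 26.9, 25.2 and 26.95 TPM in vehicle samples, 24.6, 24.2 and 25.1 in UK5099 samples, 23.1, 22.6 and 22.7 in butyrate samples and 22.9, 20.1 and 20.6 in the combination. Butyrate samples lay below vehicle, with a coefficient of -0.20 (adjusted p = 0.00338) and, rescaled, of 0.10 (adjusted p = 0.109, limma). Acox3, an oxidase of branched acyl chains, measured 3.07, 3.08 and 3.11 TPM in vehicle, 2.82, 3.13 and 2.78 after UK5099, 2.62, 2.44 and 2.65 after butyrate and 2.34, 2.16 and 2.31 after both. Its values with butyrate and with the combination lay below vehicle, at rescaled coefficients of 0.04 and 0.02. Ehhadh, the peroxisomal bifunctional enzyme, measured 1.01, 0.935 and 0.904 TPM in vehicle, against 0.687, 0.822 and 0.624 under UK5099, 0.704, 0.749 and 0.862 under butyrate and 0.711, 0.8199 and 0.738 under both. The 3 treated groups overlapped each other below vehicle, and the rescaled coefficients lay between -0.11 and 0.06.

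Ketone body metabolism held the largest positive coefficient of the 40 genes in the combination. Bdh1, the mitochondrial β-hydroxybutyrate dehydrogenase at chr16:31241098-31277720 on GRCm39, rose in all 3 comparisons. It measured 2.13, 2.299 and 1.96 TPM in vehicle samples, 3.25, 3.41 and 3.63 in UK5099 samples, 3.43, 3.501 and 3.396 in butyrate samples and 5.45, 5.696 and 5.299 in the combination. Vehicle was lowest, both single treatments overlapped and the combination was highest. The mean rose 1.61-fold with UK5099, 1.62-fold with butyrate and 2.58-fold with the combination, with a combination coefficient of 1.05 ± 0.043 (adjusted p = 1.74e-08), and 1.40 after rescaling. A gene on the opposite strand, Gm15743, overlaps Bdh1 over 1901 bases. Its means were 0.335 TPM in vehicle, 0.488 under UK5099, 0.535 under butyrate and 0.972 under both, also highest in the combination. The combination coefficient of Gm15743 was 0.58 (adjusted p = 0.00887, limma), and the part of shared reads was not tested. RefSeq gives Bdh1 2 starts, and neither stretch of 250 bases before them held any of the searched motifs.

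Acat1, the mitochondrial acetoacetyl-CoA thiolase, measured 6.23, 6.37 and 6.29 TPM in vehicle, 5.46, 5.92 and 5.44 after UK5099, 8.03, 7.95 and 7.82 after butyrate and 5.898, 6.22 and 5.77 after both. On the deposited scale only butyrate stood above vehicle, 1.26-fold, with a coefficient of 0.29 ± 0.031 and 0.56 after rescaling. The combination gave -0.07, which did not pass, and 0.33 after rescaling, which did (adjusted p = 3.43e-05, limma). Oxct1, which commits ketone bodies to oxidation in tissues other than liver, measured 7.399, 7.34 and 7.01 TPM in vehicle, against 5.84, 5.93 and 5.68 under UK5099, 7.37, 7.49 and 7.52 under butyrate and 5.48, 5.68 and 5.69 under both. Samples with UK5099 lay below all samples without it. UK5099 alone gave -0.28, or -0.14 after rescaling, whereas the combination gave -0.32 and, rescaled, 0.08, a change of sign.

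Among the regulators, Ppard was by far the most abundant PPAR. Per exonic kilobase and 1000000 fragments, vehicle held 19.8 ± 0.203 for Ppard, 2.68 ± 0.447 for Pparg, 0.188 ± 0.0214 for the coactivator gene Ppargc1a and 0.0509 ± 0.0175 for Ppara. Ppard encodes the broadly expressed PPARδ and measured 11.3, 11.2 and 10.9 TPM in vehicle samples, 17.1, 17.5 and 18.05 in UK5099 samples, 9.83, 9.77 and 10.4 in butyrate samples and 12.6, 12.9 and 12.7 in the combination. UK5099 samples were highest and butyrate samples were lowest. UK5099 raised it 1.58-fold with a coefficient of 0.61 ± 0.026 (adjusted p = 1.3e-07), and 0.74 after rescaling, the largest UK5099 coefficient among the 40 members on both scales. That rank belongs to log2(TPM + 1), which understates the fold of low genes. By ratio of means, Acsl1 (1.63), Bdh1 (1.61) and Pparg (1.59) rose by a larger factor. Butyrate gave -0.14 on the deposited scale and 0.15 after rescaling, so its direction depends on the scale.

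Pparg, best known from fat cells, measured 0.338, 0.356 and 0.253 TPM in vehicle, 0.5399, 0.468 and 0.494 after UK5099, 0.653, 0.6101 and 0.605 after butyrate and 0.662, 0.495 and 0.519 after both. Every treated sample exceeded every vehicle sample, with ratios to vehicle of 1.59, 1.97 and 1.77. The UK5099 call of Pparg was lost in 7 of the 12 fits that left out a sample (adjusted p of 0.0102 to 0.0248, limma). Ppargc1a, the coactivator of mitochondrial biogenesis, measured 0.0506, 0.0563 and 0.0623 TPM in vehicle, against 0.0297, 0.0322 and 0.03302 under UK5099, 0.0643, 0.0665 and 0.0685 under butyrate and 0.01998, 0.0186 and 0.0303 under both. These are 21 to 68 fragments per sample, with the samples carrying UK5099 below the others. Ppara, the receptor of fasting liver, had 6 to 45 fragments per sample and means of 0.0149, 0.0164, 0.0319 and 0.05403 TPM in vehicle, UK5099, butyrate and the combination. Its combination call rested on a coefficient of 0.05 and was lost in 5 of the 12 fits that left out a sample.

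**Figure D4:**
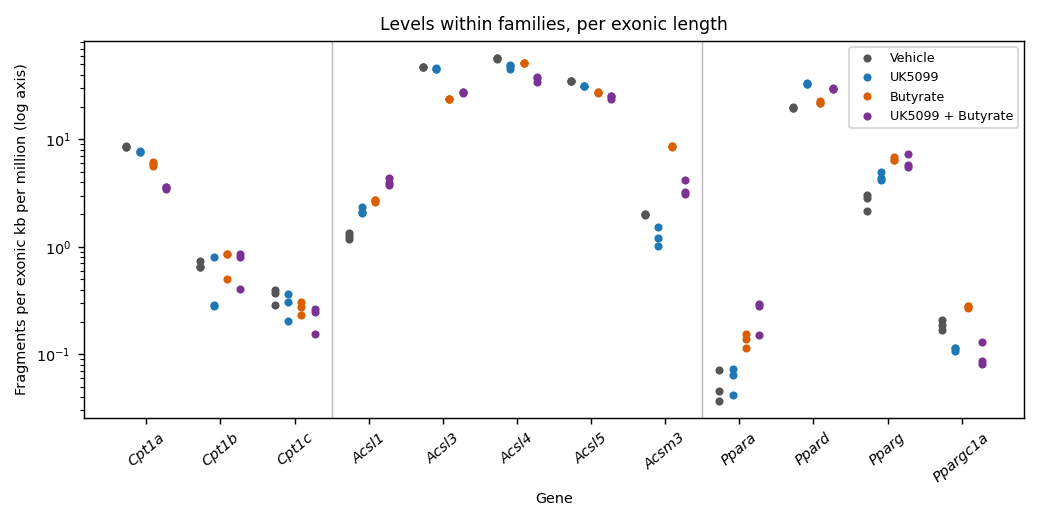
Fragments per exonic kilobase per 1000000 fragments, on a log axis, for the carnitine palmitoyltransferase 1 genes, the acyl-CoA synthetases and the regulators, 1 point per sample and 1 colour per group (n = 3). Cpt1a, Acsl4 and Ppard lead their families in vehicle, at 8.53, 56.9 and 19.8, and Ppara is at 0.0509.

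Promoter windows of 300 bases, 250 before and 50 after the start, were found in RefSeq (GRCm38.p6) for 34 of the 40 members, as 38 windows. Both strands were searched, and overlapping matches of different motifs were each counted. The GC box, GGGCGG, was in 28 of the 38 member windows (73.7%), beside 35.7% of all 32851 windows. The CCAAT box, CCAAT, was in 18 (47.4%, beside 37.4%), and the nuclear receptor half-site, AGGTCA, was in 7 (18.4%, beside 16.3%), those of Acadm, Acadvl, Cpt1a, Cpt1c, Echs1 and Pparg. The estrogen-related receptor element, AAGGTCA, contains the half-site and was in 1 window, that of Acadm (2.63%, beside 4.72%). The cyclic AMP response element, TGACGTCA, was in 0 member windows and 1.79% of all, and the DR1 element of the PPARs was in 0 member windows and 0.0396% of all. At shares this low, 0 of 38 windows cannot tell the members from other genes. The members without a window were Cpt1b, Crat, Decr1, Acaa2, Acad9 and Acat1.

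The interaction term asks whether UK5099 changed a gene by a different amount with butyrate than without it. On both scales it was positive for 2 members, Acadl and Acsl3, where it was for 6.35% of all genes, and negative for 9, Acaa2, Acad11, Acadm, Acsm3, Cpt1a, Echs1, Hadha, Hadhb and Ppard, where it was for 6.03%. As a share of 40, the negative terms were 22.5%, beside 1335 of the 13345 expressed genes. In Cpt1a, the log2(TPM + 1) mean with UK5099 minus that without it was -0.19 in the absence of butyrate and -0.55 in its presence, an interaction of -0.36 ± 0.042 (adjusted p = 0.000253, limma). Echs1 showed 0.03 without and -0.39 with butyrate, an interaction of -0.42 ± 0.044. For Acsm3 the UK5099 differences were -0.46 and -1.10, an interaction of -0.64 ± 0.12 (adjusted p = 0.00571) that did not pass with a pseudocount of 0.1 (adjusted p = 0.0542). Ppard gained 0.61 from UK5099 alone and 0.32 beside butyrate, and Acad11 gained 0.31 alone and 0.01 beside butyrate. In Acsl3 the sign turned from -0.12 to 0.11 on the deposited scale only. After rescaling, UK5099 without butyrate gave 0.02 and did not pass (adjusted p = 0.485, limma). The rescaled interaction was 0.23, so the sign did not turn there. The terms of Hadha, Hadhb, Acaa2 and Acsm3 each lost their call in 8 or 9 of the 12 fits that left out a sample, at adjusted p of up to 0.0208. Decr1 (0.15, adjusted p = 0.175), Bdh1 (0.04, 0.736) and Acsl1 (-0.04, 0.73) did not pass.

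**Figure D5:**
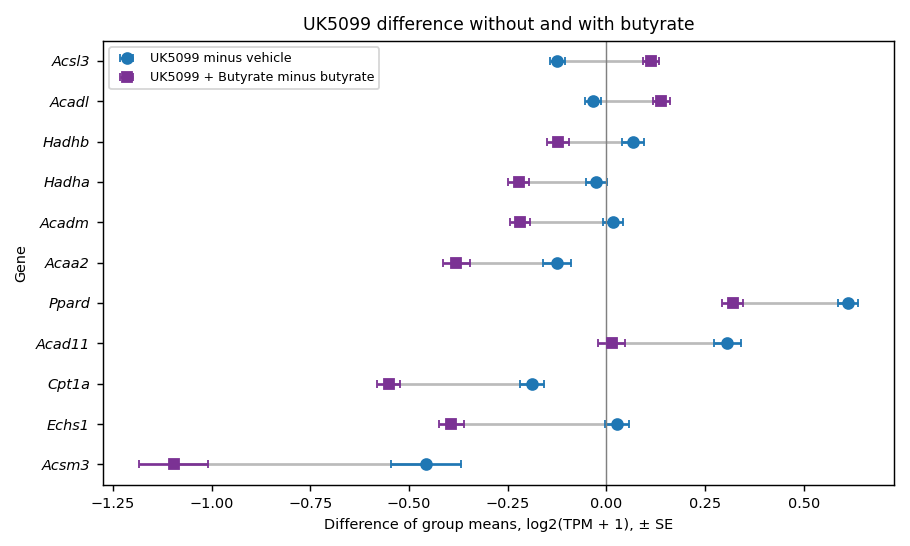
For the 11 members whose interaction passed on both scales, the difference of log2(TPM + 1) means between UK5099 and vehicle (circles) and between the combination and butyrate (squares), with standard errors. Squares lie left of circles in 9 genes, most widely in Acsm3, from -0.46 to -1.10, and right of them in Acsl3 and Acadl.

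Set directly against each other, butyrate and UK5099 differed in 18 members on both scales. Higher with butyrate were 11, Acad11, Acads, Acadvl, Acat1, Acsm3, Eci2, Etfa, Etfb, Hadh, Oxct1 and Ppargc1a, where 9.97% of all genes were, and lower were 7, Acadl, Acsl3, Acsl5, Cpt1a, Crat, Decr1 and Ppard, where 17.8% were. Acsm3 was 5.81 times as high with butyrate as with UK5099 (coefficient 1.84 ± 0.088, adjusted p = 1.89e-07) and Acsl3 0.448 times (-1.07 ± 0.019, adjusted p = 7.48e-10, limma). Oxct1 and Eci2 were 1.28 and 1.37 times as high, and Ppard was 0.5698 times as high. The call of Acads was lost in 11 of the 12 fits that left out a sample. Bdh1 and Acsl1, which rose with either treatment, gave coefficients between the treatments of 0.01 ± 0.043 and 0.05 ± 0.043 (SE) that did not pass.

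Other genes of fatty acid uptake, storage, activation and oxidation were read from a second list of 88 genes, of which 81 had a row. Of these, UK5099 called 2 higher and 1 lower, butyrate 3 higher and 3 lower, and the combination 4 higher and 4 lower. The totals of 3, 6 and 8 of 81 stand beside 1.84%, 3.54% and 6.42% of all genes and 3.21%, 6.20% and 11.1% of the expressed genes, with which they were not compared by a test. The fatty acid binding protein Fabp5, known from skin keratinocytes, had means of 21.4 ± 0.678 TPM in vehicle (SD, n = 3), 375 ± 15.2 under UK5099, 304 ± 3.91 under butyrate and 1032 ± 88.6 under both, and its relative Fabp4 had 0.375 ± 0.00614, 1.82 ± 0.403, 2.21 ± 0.1995 and 19.2 ± 2.88. They were also the 2 genes of this list whose interaction was called, at -2.31 for Fabp5 and 1.62 for Fabp4. The vehicle mean of Fabp4 was below the pseudocount of 1, and by voom on the recovered fragments its interaction was 0.90 and did not pass (adjusted p = 0.193). Phyh, the peroxisomal phytanoyl-CoA hydroxylase, went from 3.51 ± 0.247 TPM in vehicle to 13.5 ± 0.408 in the combination. Slc27a3, a fatty acid transport protein with synthetase activity, went from 6.795 ± 0.472 to 20.5 ± 1.01 TPM with butyrate.

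Of the genes of the list called lower, Angptl4, a secreted inhibitor of lipoprotein lipase and a classical PPAR target, had means of 5.43 ± 0.0116 TPM in vehicle, 2.21 ± 0.1099 under UK5099, 0.801 ± 0.157 under butyrate and 0.651 ± 0.05197 under both. Plin2, the lipid droplet coat protein, measured 11.8 ± 0.348 TPM in vehicle, 11.7 ± 0.254 under UK5099, 3.98 ± 0.0846 under butyrate and 6.23 ± 0.0573 under both, so the UK5099 samples stood near vehicle. Pnpla2, the lipase that starts triglyceride breakdown, measured 46.01 ± 1.35 TPM in vehicle, 28.1 ± 1.08 under UK5099, 21.6 ± 0.318 under butyrate and 14.6 ± 0.916 under both. Its coefficients were -0.69, -1.05 and -1.59, or -0.54, -0.75 and -1.15 after rescaling, where the butyrate one no longer passed 1 in size. The thioesterase Acot7 was called in the combination, at a coefficient of -1.08, or -0.75 after rescaling. Slc27a3 and Plin2 were the 2 genes of the list called between butyrate and UK5099, at 1.52 and -1.35.

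The 4 endothelial markers summed to at most 0.0426 TPM in any sample. As these TPM are scaled to the genomic span of each gene, levels of different markers cannot be ranked. A low sum does not show that a cell type was absent. Of the 5 adipocyte markers listed, only Retn was analysed here, at no more than 0.0928 TPM, and of the 4 muscle markers only Myh11, at no more than 0.0156 TPM, so both lists rest on 1 gene. Fabp4, which fat cells are also known for and which was not on the marker list, reached 19.2 TPM in the combination, as given above. Fibroblast markers summed to 2.27 to 2.88 TPM in the groups other than butyrate and to 10.6 to 10.97 with butyrate, of which Dcn made up 9.51. Leukocyte markers summed to 23.99 to 25.1 TPM in vehicle and 87.0 to 97.7 in the combination, nearly all from the lysosomal gene Cd68, while Ptprc, the common leukocyte antigen, averaged at most 0.00163 TPM. The part of these cells in the results was not tested.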

How the data were processed

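RNA-seq libraries of 12 organoid samples were analysed from a deposited table of TPM values, in which each sample sums to 1000000. The labels describe a strand-marking kit with depletion of ribosomal RNA, and the submitters' processing notes name STAR 2.7.9a, Partek and GRCm39, whereas the study's methods for this experiment describe fastp, STAR and RSEM on GRCm38. The deposited TPM were scaled by the authors to the listed length, which is the genomic span of each gene (stop minus start for 100% of genes, median 11598 bases, where exonic lengths have a median of 3006), so levels of different genes were compared per exonic length from GENCODE M21, matched by gene ID. Fragments per gene were recovered from the steps of the TPM values. Of values between 0.5 and 1000 fragments, about 66.0% to 67.1% were whole within 0.02 fragments, so reads were shared between some genes and no count test was used as the main result. Whether counting used strand is not given in the sources used here.

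Differences were tested with limma 3.58.1 in R 4.3.3 on log2(TPM + 1), which understates the fold of low genes, with an intercept, UK5099, butyrate and their interaction, empirical Bayes moderation, and Benjamini-Hochberg adjustment over all 24674 genes. The 12 samples shared 1 estimate of spread. The code was tested on simulated data. The requirement of the same sign on the deposited and the median-of-ratios scale was chosen after the data were seen, and the members, the second list and the markers were chosen with earlier results of these data known. All 40 members are named by role. Every sample is given for members past both thresholds against vehicle and for the 3 highest of each role by TPM and per exonic length, and further members were added after their values were seen. Genes of the second list are named where they passed both thresholds against vehicle with a group mean of at least 1 TPM, and those that did are named, except for 1 gene that is not reported here. Alternatives were other pseudocounts (0.1, 0.01), a filter at a mean of 1 TPM, 3 other scalings, voom on recovered fragments, another prior, a replicate block, fits of the compared groups alone, an adjusted p under 0.05, and leaving out each sample. Promoters come from RefSeq on GRCm38.p6, which is not the build of the table, and no coordinates were carried between builds.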

Additional observations from a re-analysis of the deposited data

Results flagged for a closer look

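In 11 of the 40 genes, limma's interaction test passed on both scales, the UK5099 difference being unequal in the absence and presence of butyrate. Negative terms were found in 9 of 40, beside 1335 of the 13345 expressed genes and 6.03% of all genes. Positive terms were found in 2 of 40, beside 1199 of the 13345 expressed genes and 6.35% of all genes. The interaction coefficients on the log2(TPM + 1) scale were negative for Acsm3 (-0.64), Echs1 (-0.42), Cpt1a (-0.36), Acad11 (-0.29), Ppard (-0.29), Acaa2 (-0.26), Acadm (-0.24), Hadha (-0.20) and Hadhb (-0.19). They were positive for Acsl3 (0.24) and Acadl (0.17). Adjusted p-values ran from 0.000149 for Echs1 to 0.00723 for Hadhb. Not all of these calls were stable. Of the 12 fits that left out a sample, 8 lost the call of Hadha. For Hadhb, Acaa2 and Acsm3 the call was lost in 9 fits each. On the rescaled values the interactions of Acadm, Hadha and Hadhb were -0.24, -0.20 and -0.19, whereas their differences from vehicle in the combination turned from negative to positive.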

How the results depend on the processing

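Counts of called members moved with the scale and the low end. For butyrate the count of 2 became 1 after median-of-ratios scaling and 1 after quantile normalization, and 7 by voom. For the combination 4 became 9 with a pseudocount of 0.01 and 7 by voom, and 3 after median-of-ratios scaling, where Acsl3 (-0.65) and Cpt1a (-0.88) were no longer called and Acsl1 (1.09) was. Butyrate against UK5099 went from 2 to 1 after median-of-ratios scaling, 1 after quantile normalization and 1 on nuclear protein-coding genes. Genes called in the second list went, for UK5099, from 3 to 8 and 9 with pseudocounts of 0.1 and 0.01, 5 on nuclear protein-coding genes and 10 by voom, for butyrate from 6 to 12 with 0.01 and 14 by voom, and for the combination from 8 to 16, 18 and 15 with 0.1, with 0.01 and by voom. The members' median coefficient depended most on scaling. For UK5099 it went from -0.11 to 0.00756 (median of ratios), -0.00273 (quantile) and 0.0152 (voom), for butyrate from -0.11 to 0.15, 0.18, 0.19 (voom) and 0.0513 (nuclear protein-coding genes), and for the combination from -0.28 to 0.0657, 0.0459, 0.10 (voom), -0.11 (nuclear protein-coding genes), -0.35 and -0.36 (pseudocounts of 0.1 and 0.01) and -0.30 (mean of at least 1 TPM). For the interaction it went from -0.04 to -0.0715 and -0.0741 with those pseudocounts and -0.0727 by voom, and for butyrate against UK5099 from 0.02 to 0.15, 0.16, 0.17 (nuclear protein-coding genes) and 0.19 (voom). The cause was not tested, although rescaling shifts all genes of a sample alike.

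Leaving out single samples kept the called members at 0 for UK5099, 2 for butyrate, 4 for the combination, 0 for the interaction and 2 for butyrate against UK5099. Genes of the second list stayed at 2 to 3, 6 to 7 and 8 to 9, and the medians at -0.13 to -0.11, -0.12 to -0.09, -0.29 to -0.25, -0.05 to -0.03 and 0.01 to 0.03. Of 1548 refitted values of 68 member results, 1448 kept direction and side of the threshold, 100 fell short of the threshold and 0 turned sign, and 55 results held throughout. Left-out samples ended 9 calls: Acadvl with butyrate (without butyrate replicate 3), Pparg with UK5099 (7 of 12), Etfa with butyrate (9), Ppara in the combination (5), the interactions of Hadha (8), Hadhb, Acaa2 and Acsm3 (9 each), and Acads between butyrate and UK5099 (11), with adjusted p where lost of 0.0102 to 0.0344. Etfa kept its call without UK5099 replicate 1, UK5099 + Butyrate replicate 1 and Vehicle replicate 1.

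The replicate numbers did not pair the samples, since deviations of 18 same-number pairs correlated at -0.107 to 0.0294 with 0 over 0.1. With a replicate block the called members stayed at 0, 2, 4, 0 and 2 for UK5099, butyrate, the combination, the interaction and butyrate against UK5099. The block left 5 single calls short of the threshold, Etfa with butyrate, Ppara in the combination, and the interactions of Hadha, Hadhb and Acaa2. Depth limits Ppara and Ppargc1a, at no more than 45 and 68 fragments in any sample, and fits with 3 samples a group limit the rest.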
